A study of Homo sapiens with 4 samples.

Results

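The proteasome genes of the human melanoma cell line A375 were followed after 6 h with 0.01% ozonated olive oil, against 6 h with 0.01% olive oil. Genes were taken by name: every row whose symbol is PSMA to PSMG followed by a number, and POMP. Of 28395 rows in the count table, 49 matched and 45 were kept. PSMB8 and PSMB9 were left out because they lie in a region with almost no counts, and PSMA8 and PSMB11 because their summed count was under 40. All 45 kept genes passed the filter on low counts. They comprise 7 genes of the alpha ring, 8 of the beta ring, 9 of the base, 8 of the lid, 5 activators or inhibitors and 8 assembly factors.

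The proteasome is the barrel-shaped protease that degrades most short-lived and damaged proteins marked with ubiquitin. Its core particle stacks alpha rings outside and beta rings inside, and the beta rings carry the proteolytic sites. The regulatory particle, made of a base of ATPases and a lid, recognises, unfolds and admits substrates. Proteasome genes are known to be induced together by the transcription factor NFE2L1 when proteasome activity falls short, and some subunits also by its relative NFE2L2 under oxidants and electrophiles. Both bind antioxidant response elements with small MAF partners.

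Each oil had 2 libraries, numbered 1 and 2 in the titles. The line is labelled wild type in both groups, and A375 is known to carry an activating BRAF mutation. All 4 libraries come from this 1 line, and the labels do not say whether they come from separate cultures, so a p-value here reflects only how these libraries vary, and that variation may be technical. Library totals were 23571726 and 22245807 counts with ozonated olive oil, and 27772480 and 26609495 counts with olive oil. The libraries numbered 1 and 2 stood apart within both oils: the first principal component (66.4% of the variance) split libraries by number, and the next one (21.3%) by oil. Differences between the oils are therefore also described within each number, as 1 library against 1, with no test. The melanocyte lineage factor SOX10 was expressed at 294 and 361 CPM with ozonated olive oil and at 278 and 301 CPM with olive oil, while pigment genes were near absent: TYR had 0 counts in every library, and PMEL, MLANA, DCT and TYRP1 stayed under 1.4 CPM. Of markers of other cell types, the 6 keratinocyte genes summed to 95.9 and 87.7 CPM with ozonated olive oil and to 98.7 and 95.1 CPM with olive oil, mostly KRT10 and some KRT14 (7.91 to 16.4 CPM), while TP63 had 0 counts in every library. The 5 leukocyte genes summed to 82.3 and 42.3 CPM with ozonated olive oil and to 67.2 and 28.9 CPM with olive oil, nearly all CD68, with CD3E at 0 counts in every library. The 6 fibroblast genes summed to 13.2 to 15.3 CPM and the 4 endothelial genes to 2.34 to 3.45 CPM per library.

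The promoters of 4 members are shown because they hold the core of the antioxidant response element, the site bound by NFE2L1 and NFE2L2, and because their genes stood on both sides of 0 between the oils. They were picked from the 12 with a match after the values had been seen. Sequences are those of RefSeq on GRCh38.p14, from 250 bases before the annotated start to 50 bases after it, 5′ to 3′ along the gene, with matches to TGACNNNGC on either strand in capitals. The promoter of PSMC4, an ATPase of the base, lies at chr19:39970915-39971214 on the plus strand, with a match beginning 27 bases after the start. That of PSMD3, a lid subunit, lies at chr17:39980557-39980856 on the plus strand, with matches on opposite strands 37 bases before and 33 bases after the start. The promoter of PSME4, which encodes the activator PA200, is at chr2:53970944-53971243 on the minus strand, with a match 34 bases before the start. PSMD5, a chaperone of base assembly, has its promoter at chr9:120842873-120843172 on the minus strand, with a match 134 bases before the start.
PSMC4: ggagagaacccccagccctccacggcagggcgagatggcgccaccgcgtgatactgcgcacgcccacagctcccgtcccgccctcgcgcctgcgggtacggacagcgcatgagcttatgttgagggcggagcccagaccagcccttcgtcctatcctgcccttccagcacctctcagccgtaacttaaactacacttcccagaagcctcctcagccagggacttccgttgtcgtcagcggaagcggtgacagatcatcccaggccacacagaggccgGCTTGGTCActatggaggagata
PSMD3: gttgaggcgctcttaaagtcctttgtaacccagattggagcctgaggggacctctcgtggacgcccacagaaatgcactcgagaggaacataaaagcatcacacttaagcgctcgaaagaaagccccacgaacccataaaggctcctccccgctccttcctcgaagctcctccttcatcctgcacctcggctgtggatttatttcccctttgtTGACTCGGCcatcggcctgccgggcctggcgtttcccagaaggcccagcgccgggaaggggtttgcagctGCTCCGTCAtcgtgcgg
PSME4: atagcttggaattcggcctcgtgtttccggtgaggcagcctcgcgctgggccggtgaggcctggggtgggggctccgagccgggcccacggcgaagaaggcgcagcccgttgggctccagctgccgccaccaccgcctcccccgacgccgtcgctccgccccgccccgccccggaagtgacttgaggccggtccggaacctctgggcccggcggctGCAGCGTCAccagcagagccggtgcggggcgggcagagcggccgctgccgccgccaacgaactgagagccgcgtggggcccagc
PSMD5: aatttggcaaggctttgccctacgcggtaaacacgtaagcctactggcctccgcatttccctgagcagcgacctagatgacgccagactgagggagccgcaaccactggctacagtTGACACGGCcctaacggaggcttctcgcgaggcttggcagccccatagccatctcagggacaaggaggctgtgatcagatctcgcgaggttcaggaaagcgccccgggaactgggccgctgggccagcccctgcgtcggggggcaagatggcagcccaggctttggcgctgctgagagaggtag

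Of the 45 members, 39 had a promoter in the table. PSMA7, PSMB1, PSMB6, PSMB7, PSMD4 and PSMG3 had none. TGACNNNGC was found in 12 of the 39 (30.8%), against 3702 of all 27305 promoters of the same length (13.6%) and 15% of the 11538 promoters of tested genes. By role, the matches fell in 0 of 6 alpha ring promoters, 1 of 5 beta ring promoters, 2 of 8 base promoters, 2 of 8 lid promoters, 3 of 5 activator or inhibitor promoters and 4 of 7 assembly factor promoters. The 12 genes with a match had a median log2 fold change of 0.08 between the oils, and the other 33 members, 6 of them with no promoter to search, 0.12. The NF-Y box CCAAT, on either strand, was in 17 of 39 (43.6%), against 35.7% of all promoters and 36.6% of those of tested genes. TGACG, the core of the cyclic AMP response element, which can overlap a TGACNNNGC match, was on either strand of 13 of 39 (33.3%), against 25% of all promoters and 33.6% of those of tested genes, so its share was that of tested genes. A match describes the letters of the window and does not show that a factor binds there.

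The transcript levels of the members are compared per length, as CPM per kb of an annotated transcript averaged over the 4 libraries. PSMB4 (beta ring), at 568 CPM per kb, and PSMA7 (alpha ring), at 492 CPM per kb, were the highest, followed by the activator gene PSME3 at 316 CPM per kb. Leaving out PSMB3 and the immunosubunit gene PSMB10, the 30 core, base and lid genes had a median of 136 CPM per kb and ranged from 35.5 CPM per kb for the ATPase gene PSMC1 to the 568 of PSMB4. That pair was set aside after the values had been seen. Assembly factors other than POMP lay lower, with a median of 28.6 CPM per kb and a range from 18.5 (PSMG4) to 38.8 (PSMD10). POMP, the maturation protein of the core that is itself degraded by each new particle, lay at 209 CPM per kb, within the range of the subunits. The isoform in use was not measured, and the annotated length matters for some: with the shortest principal transcript in place of the longest, PSMA4 lay at 273 instead of 67.7 CPM per kb, PSMD11 at 119 instead of 62.6 and PSMG3 at 66.1 instead of 36.8.

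**Figure D1:**
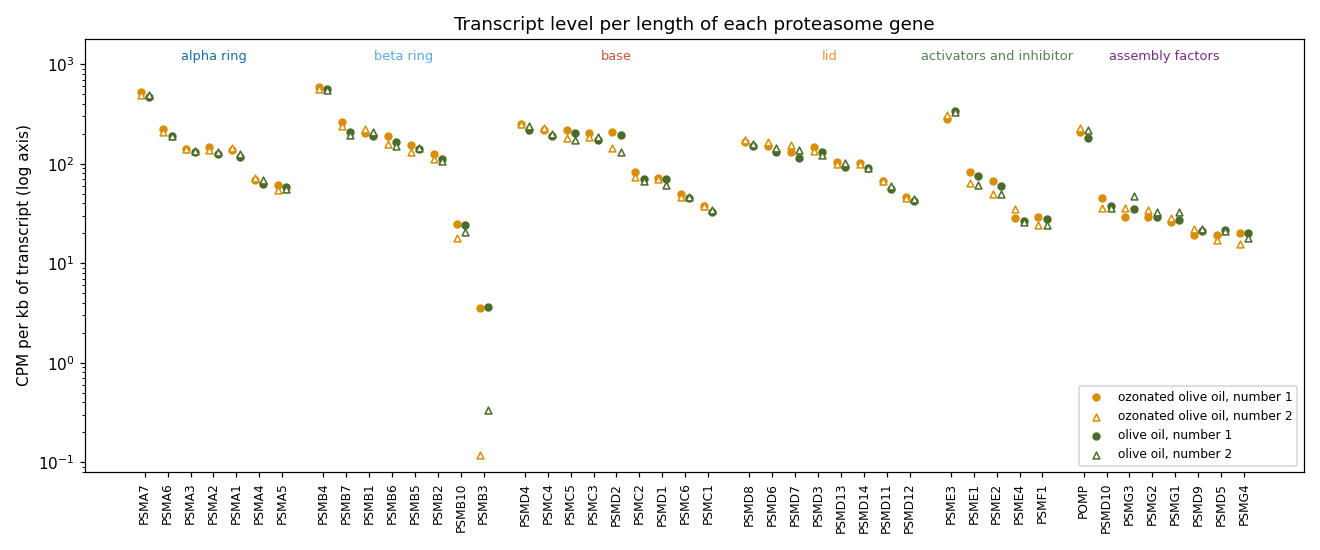
Level of each of the 45 proteasome genes per length, as CPM per kb of transcript on a log axis, grouped by role. Circles are libraries numbered 1 and triangles libraries numbered 2, in orange for ozonated olive oil and in green for olive oil. PSMB4 and PSMA7 lie highest, assembly factors other than POMP lie low in every library, and PSMB3 lies far below its ring, with its libraries split by number.

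PSMB3 encodes a structural beta subunit that every core particle needs, yet it had 64 and 2 counts with ozonated olive oil, against 80 and 7 counts with olive oil. Within 100 kb on each side of it on chromosome 17, 6 of 9 protein-coding genes, PSMB3 being among the 9, had under 40 counts summed over the libraries. The same holds around PSMB8 on chromosome 6, where 30 of 33 coding genes within 500 kb on each side were under that sum, PSMB8 and PSMB9 themselves included. The values of PSMB3 are therefore given here once. It is kept in each count of 45 and of its role group, and its calls are listed, but its differences rest on few counts and are not interpreted. The immunosubunit genes PSMB8 and PSMB9 had 1 and 38 counts in ozonated olive oil replicate 1 and 0 counts in the other 3 libraries. The testis alpha subunit gene PSMA8 had 1 count in all, and PSMB11, of the thymus-specific core, had 0 counts, which allows up to 0.127 and 0.135 CPM in the ozonated olive oil libraries and up to 0.108 and 0.113 CPM in the olive oil ones (3 counts of the total, counting error only).

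The design sets the ozonated oil against the plain oil. No proteasome gene passed: edgeR's quasi-likelihood F test (Benjamini-Hochberg adjusted) called 0 of 45 members, where 0% of the 14841 tested genes were called, and each member's adjusted p rounded to 1. DESeq2 and limma-voom also called 0 of 45 members, while DESeq2 called 58 genes over the whole table. None of these fits has a term for the number. The calls depend on that choice, and those with the number as a replicate block are given in the closing section. At an unadjusted p under 0.05 stood 1 of 45 members, PSMB7, against 3.84% of the tested genes. What the data do hold is a small difference that most subunit genes shared. The fitted log2 fold change was above 0 for 37 of 45 members, with a median of 0.11, or 1.08-fold, where the median over all tested genes was 0.00. Within number 1 the median over members was 0.14, and within number 2 it was 0.06.

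Within both numbers 29 of 45 members were higher with ozonated olive oil, against 31.6% of the tested genes, and 6 of 45 were lower, against 31.1%. For 20 of 45 members the ozonated olive oil libraries were both on top, against 15.3% of the tested genes, and for 2 of 45 they were both underneath (PSME3 and PSMD5), against 15.7%. Abundant genes as a whole leaned the same way: among the 2426 tested genes with a mean of 100 CPM or more, a level chosen after seeing the data, 43.1% were higher within both numbers, 20.6% had both ozonated olive oil libraries on top, and the median was 0.03. Summed over the members, the level was 9770 and 9274 CPM with ozonated olive oil, against 8875 and 8783 CPM with olive oil, with no overlap between the groups. As a share of the unscaled total it was 0.974% and 0.901% with ozonated olive oil, against 0.902% and 0.890% with olive oil, where the groups overlapped. The share of counts on mitochondrial genes ran in the same order over the libraries, at 2.36% and 2.11% with ozonated olive oil and 2.14% and 2.01% with olive oil, and its part in the members' difference was not tested. The scaling thus bears on the size of the median, and it moves all genes with the members. Without scaling factors the median over members was 0.07, while that of all genes tested was -0.04, both lower than with scaling. In extracts of whole cultures, fewer expressing cells and less RNA per cell cannot be told apart. Without ozonated olive oil replicate 1 the median was 0.05, under that of the other libraries left out (0.10 to 0.13), and 29 of 45 members stood above 0.

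The members' differences were narrow as well as small. The SD of the fitted log2 fold change over members was 0.05 in the base, 0.05 in the lid, 0.06 in the alpha ring and 0.12 in the beta ring without PSMB3, against 0.37 over all tested genes and 0.22 over those at 100 CPM or more. It was 0.16 among the activators and inhibitor and 0.16 among the assembly factors. Over the 44 members without PSMB3, the 2 within-number differences had a correlation of r = 0.68, a description over genes that share libraries and scaling. Over all tested genes r was 0.23, but these include many genes of low count. No r was computed over the genes at 100 CPM or more, so the 2 values are not matched for level.

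**Figure D2:**
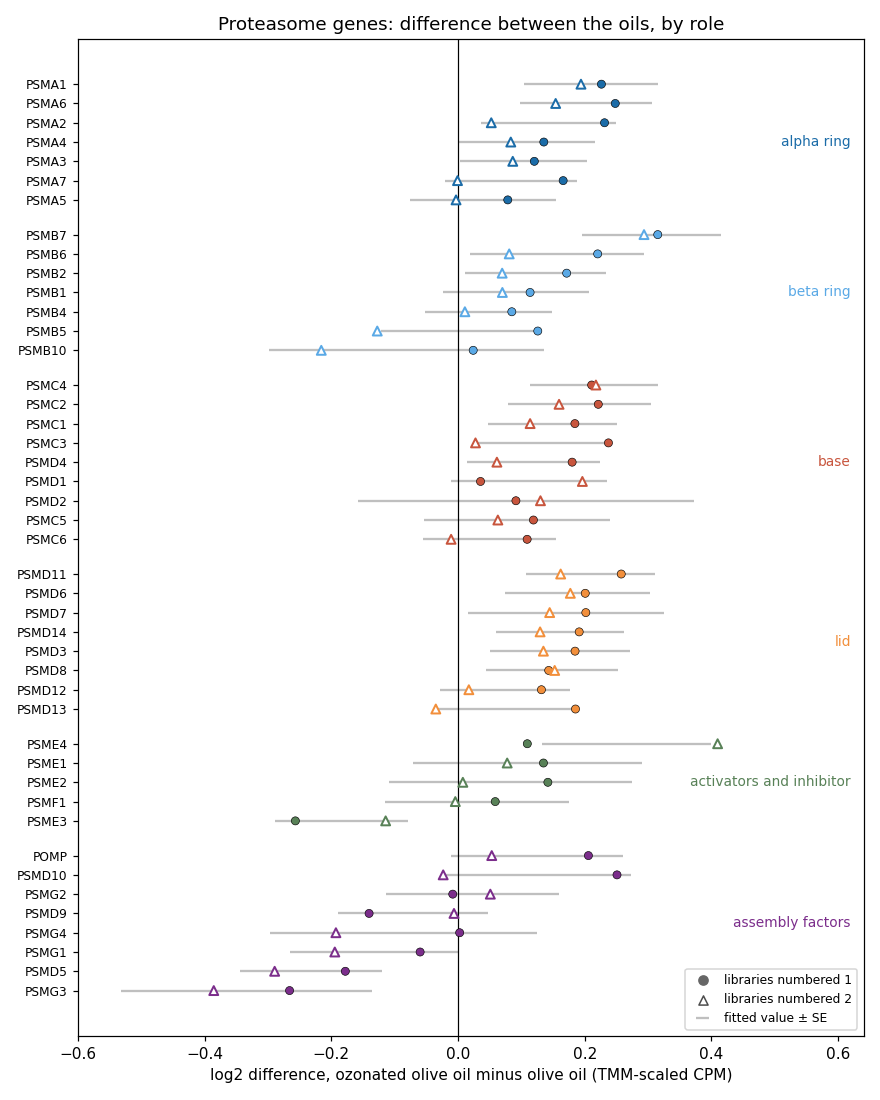
Log2 difference between the oils, ozonated olive oil minus olive oil, for 44 proteasome genes without PSMB3, grouped by role and ordered by the fitted value. Circles are the libraries numbered 1, triangles those numbered 2, and grey bars span the fitted value ± SE of the 2-against-2 fit. The core, base and lid genes sit mostly right of 0, while PSME3, PSMD5 and PSMG3 sit left of 0 within both numbers.

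The alpha ring forms the gate through which substrates enter the core. Its 7 genes had a median log2 fold change of 0.11, with 5 higher within both numbers and none lower within both. PSMA6 lay at 232 and 216 CPM with ozonated olive oil, against 195 and 194 CPM with olive oil. The groups did not overlap, and its log2 fold change was 0.20 ± 0.10 (SE). PSMA1 lay at 206 and 215 CPM with ozonated olive oil and at 176 and 188 CPM with olive oil, a log2 fold change of 0.21 ± 0.11 (SE). PSMA2 lay at 219 and 204 CPM with ozonated olive oil and at 186 and 197 CPM with olive oil, a difference held mainly by the libraries numbered 1 (0.23 within number 1 and 0.05 within number 2). PSMA7, the most abundant gene of this ring per length, lay at 522 and 486 CPM with ozonated olive oil and at 465 and 486 CPM with olive oil, so its groups met in the libraries numbered 2. The other 3 genes, PSMA3, PSMA4 and PSMA5, had fitted values from 0.04 to 0.11. The gene named as antisense to PSMA3 had 501 to 761 counts per library.

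The beta ring holds the catalytic subunits: PSMB6 (caspase-like activity), PSMB7 (trypsin-like) and PSMB5 (chymotrypsin-like, the main target of bortezomib). The ring's median log2 fold change was 0.07, or 0.09 without PSMB3, and 5 of 8 genes were higher within both numbers. The values of the 3 catalytic genes were unlike. PSMB7 lay at 256 and 236 CPM with ozonated olive oil, against 206 and 192 CPM with olive oil. Its groups did not overlap, and its log2 fold change of 0.30 ± 0.11 (SE; 1.24-fold, unadjusted p = 0.0398 by edgeR) was the highest fitted value of the 45 members, at 0.32 within number 1 and 0.29 within number 2. PSMB6 lay at 163 and 135 CPM with ozonated olive oil and at 140 and 128 CPM with olive oil, higher within each number (0.22 and 0.08) but with overlapping groups. PSMB5 lay at 201 and 169 CPM with ozonated olive oil and at 184 and 185 CPM with olive oil, so that 1 ozonated olive oil library was above and 1 below both olive oil libraries (0.13 within number 1 and -0.13 within number 2). The difference between these catalytic genes was not tested.

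PSMB4, a structural subunit and the most abundant member per length, lay at 573 and 541 CPM with ozonated olive oil and at 540 and 537 CPM with olive oil, a log2 fold change of 0.05 ± 0.10 (SE). PSMB2 lay at 340 and 305 CPM with ozonated olive oil and at 302 and 291 CPM with olive oil, without overlap. PSMB10 encodes the interferon-inducible counterpart of PSMB7 in the immunoproteasome. It lay at 30.0 and 21.6 CPM with ozonated olive oil and 29.5 and 25.2 CPM with olive oil, and its groups overlapped.

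The base unfolds substrates and feeds them into the core. All 9 of its genes had fitted values above 0 (median 0.12), and 8 of 9 were higher within both numbers, PSMC6 being the exception with -0.01 within number 2. PSMC4, an ATPase, differed alike in both numbers: it lay at 351 and 366 CPM with ozonated olive oil, against 303 and 315 CPM with olive oil, with differences of 0.21 within number 1 and 0.22 within number 2. Its log2 fold change was 0.21 ± 0.10 (SE, unadjusted p = 0.0887 by edgeR). PSMC2 lay at 252 and 227 CPM with ozonated olive oil and at 216 and 204 CPM with olive oil, and PSMC1 at 166 and 166 CPM with ozonated olive oil and at 146 and 153 CPM with olive oil. Neither gene's groups overlapped. PSMD4, a ubiquitin receptor at the joint of base and lid, lay at 338 and 338 CPM with ozonated olive oil and at 298 and 324 CPM with olive oil. Over the base, both ozonated olive oil libraries were on top for 5 of 9 genes, against 15.3% of the tested genes. The groups of PSMC5, PSMC6, PSMD1 and PSMD2 overlapped. The scaffold gene PSMD2 lay at 721 and 499 CPM with ozonated olive oil and 677 and 456 CPM with olive oil, far lower in the libraries numbered 2 of both oils. PSMC5 and PSMD1 were also lower in both libraries numbered 2, by less (log2 differences of -0.24 and -0.14, against -0.55 for PSMD2). Leaving out ozonated olive oil replicate 1 gave a log2 fold change of -0.18 for PSMD2 and leaving out olive oil replicate 2 gave -0.15, against 0.11 with all libraries.

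The lid removes ubiquitin chains from substrates. All 8 of its genes had fitted values above 0, with a median of 0.16, and 7 of 8 were higher within both numbers. Without scaling factors the lid median was 0.12, where that of all genes tested was -0.04. With all libraries this was the highest median of the 6 role groups, but the order rests on single libraries. Without ozonated olive oil replicate 2 the lid had 0.12 and the base 0.18, and without olive oil replicate 1 the lid had 0.11 and the base 0.18. PSMD13 was the exception, at 0.19 within number 1 and -0.04 within number 2. PSMD11, a subunit that steadies the contact of lid, base and core, lay at 276 and 274 CPM with ozonated olive oil, against 231 and 245 CPM with olive oil. Its log2 fold change was 0.21 ± 0.10 (SE, unadjusted p = 0.0964 by edgeR). PSMD6 lay at 216 and 234 CPM with ozonated olive oil and at 188 and 207 CPM with olive oil, and PSMD8 at 256 and 271 CPM with ozonated olive oil and at 232 and 244 CPM with olive oil. PSMD14, the deubiquitinase of the lid, lay at 201 and 193 CPM with ozonated olive oil and at 176 and 176 CPM with olive oil, 0.16 ± 0.10 on the log2 scale (SE). For all 4 of these named genes the ozonated olive oil libraries lay above both olive oil libraries. The same held for 6 of the 8 lid genes, against 15.3% of the tested genes and 20.6% of those at 100 CPM or more. PSMD11, PSMD6 and PSMD14 had the smallest unadjusted p of the lid by edgeR, and such genes were named by rule. PSMD3, whose promoter is shown above, had 0.16 ± 0.11 (SE). A gene named as antisense to PSMD6 had 52 to 97 counts per library, few beside those of PSMD6.

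**Figure D3:**
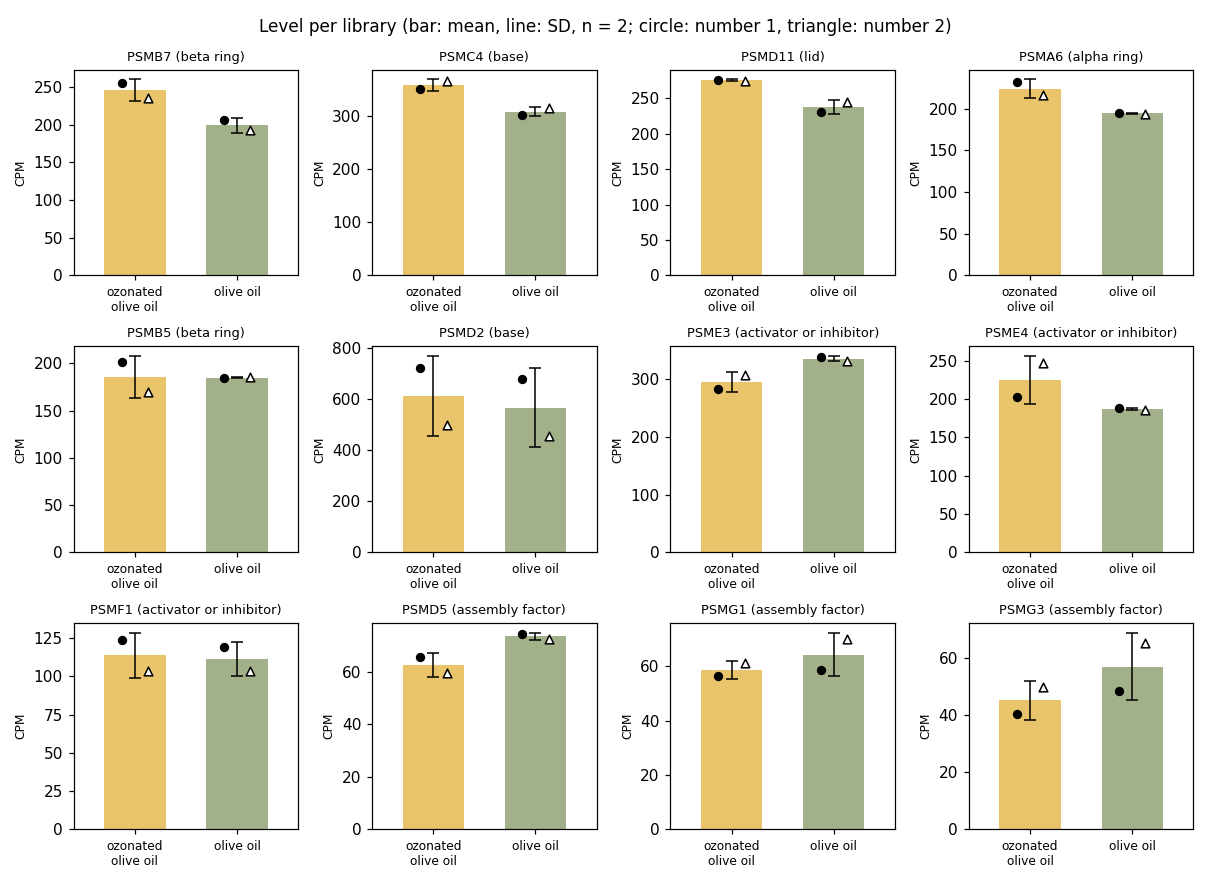
Level of 12 proteasome genes in each library, in CPM, with ozonated olive oil left of olive oil. Bars are means, lines the SD (n = 2 per oil), circles the libraries numbered 1 and triangles those numbered 2. PSMB7, PSMC4, PSMD11, PSMA6 and PSME4 stand higher in both ozonated olive oil libraries, PSME3 and PSMD5 lower in both, and PSMD2 differs by number within each oil.

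The activators open the core without the ATPases, and their values did not share a direction. PSME4 encodes PA200, a large activator found in nuclei and known for acetylated histone turnover in testis and after DNA damage. It lay at 203 and 247 CPM with ozonated olive oil, against 188 and 186 CPM with olive oil. Its log2 fold change was 0.27 ± 0.13 (SE), most of it from the libraries numbered 2 (0.11 within number 1 and 0.41 within number 2). Without ozonated olive oil replicate 2 the value was 0.12. PSME3, which encodes the nuclear activator PA28 gamma, pointed the other way, at 284 and 307 CPM with ozonated olive oil against 339 and 333 CPM with olive oil. The groups did not overlap, and the log2 fold change was -0.18 ± 0.10 (SE).

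PSME1 and PSME2 encode the interferon-inducible activator PA28 alpha and beta. PSME1 lay at 83.0 and 64.5 CPM with ozonated olive oil and at 75.6 and 61.2 CPM with olive oil, and PSME2 at 93.2 and 69.3 CPM with ozonated olive oil and at 84.4 and 69.0 CPM with olive oil. PSMF1, the proteasome inhibitor PI31, lay at 124 and 103 CPM with ozonated olive oil and at 119 and 104 CPM with olive oil. All 3 had overlapping groups, with the libraries numbered 2 lower in both oils. Their fitted values of 0.11, 0.08 and 0.03 turned to -0.08, -0.15 and -0.11 without ozonated olive oil replicate 1 and to -0.03, -0.05 and -0.07 without olive oil replicate 2.

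The assembly factors help to build the particle and are not part of the finished one. Their values did not share the upward lean of the subunits: 3 of 8 had a fitted value above 0, and the median was -0.08. Within both numbers 1 of 8 was higher (POMP), against 31.6% of the tested genes. Lower within both were 4 of 8 (PSMD5, PSMD9, PSMG1 and PSMG3), against 31.1%. The ozonated olive oil libraries were both underneath for 1 of 8 (PSMD5), against 15.7% of the tested genes. They were both on top for 0 of 8, against 15.3%. Of the 15 core genes 10 were higher within both numbers and 1, PSMB3, was lower within both. Of the 17 base and lid genes 15 were higher and 0 lower. PSMB3 and PSMB10, set aside after the values had been seen, both had fitted values below 0. Of the 30 core, base and lid genes without that pair, 25 were higher within both numbers and 0 lower within both. Since the groups were set side by side after their values were known, no test of the contrast is given. The assembly factors other than POMP also lay at lower CPM than these 30 genes. Abundant genes as a whole leaned higher, as given above, and the part of level in the contrast was not tested. PSMD5 lay at 65.8 and 59.4 CPM with ozonated olive oil, against 74.4 and 72.6 CPM with olive oil. The groups did not overlap, and the log2 fold change was -0.23 ± 0.11 (SE, unadjusted p = 0.0923 by edgeR). PSMG3, a chaperone of alpha ring assembly, lay at 40.5 and 50.05 CPM with ozonated olive oil and at 48.7 and 65.4 CPM with olive oil, lower within each number (-0.27 and -0.39) though the groups overlapped. Its log2 fold change was -0.33 ± 0.20 (SE), with -0.10 without olive oil replicate 2 and -0.53 without olive oil replicate 1.

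PSMG1 and PSMG2 form another chaperone of the alpha ring. PSMG1 lay at 56.4 and 61.1 CPM with ozonated olive oil and at 58.8 and 69.9 CPM with olive oil, and PSMG2 at 49.3 and 57.5 CPM with ozonated olive oil and at 49.6 and 55.5 CPM with olive oil. The groups of both overlapped. POMP lay at 278 and 302 CPM with ozonated olive oil and at 241 and 291 CPM with olive oil, also with overlap, a log2 fold change of 0.12 ± 0.14 (SE) that was -0.01 without olive oil replicate 1. PSMD9, PSMD10 and PSMG4 had fitted values of -0.07, 0.12 and -0.09.

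Because the library numbers stood apart, the members were also compared between numbers, with the oil as a term in the fit. The labels do not say what the number stands for. By the quasi-likelihood F test of edgeR (Benjamini-Hochberg adjusted), 2 of 45 members were higher in the libraries numbered 2, against 11.1% of the tested genes, and 7 of 45 were lower, against 13.3%. PSMD2 had the smallest adjusted p of the members, 5.39e-06: it lay at 499 and 456 CPM in the libraries numbered 2 (ozonated olive oil and olive oil), against 721 and 677 CPM in those numbered 1, a log2 difference of -0.55 ± 0.06 (SE). This difference, -0.53 with ozonated olive oil and -0.57 with olive oil, exceeded the difference of PSMD2 between the oils (0.11).

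The other members lower in number 2 were PSME2 (-0.36, adjusted p = 0.00633), PSMB10 (-0.35, adjusted p = 0.0457), PSME1 (-0.33, adjusted p = 0.01), PSMC5 (-0.24, adjusted p = 0.0165), PSMF1 (-0.23, adjusted p = 0.048) and PSMB3, all by edgeR. The calls of PSMB3, here and below, rest on the few counts given above. PSME1, PSME2 and PSMB10 are interferon-inducible. The summed level of the leukocyte markers also differed by number, at 42.3 and 28.9 CPM in the libraries numbered 2 (ozonated olive oil and olive oil), against 82.3 and 67.2 CPM in those numbered 1. Nearly all of it was CD68, which other cells also express, and its part in these differences was not tested. PSMG3 (0.37, adjusted p = 0.00936 by edgeR) and the lid gene PSMD7 (0.26, adjusted p = 0.0146 by edgeR) were higher in number 2. Both libraries numbered 2 lay above both numbered 1 for 7 of 45 members, against 27.2% of the tested genes, and below them for 12 of 45, against 27.5%. The fit has 1 residual degree of freedom, so it leans on the spread estimated across genes. DESeq2 called 3 of 45 members in the same comparison (PSME2, PSMB3 and PSMD2), and without a term for the oil edgeR called 2 (PSMB3 and PSMD2). The calls of these fits over all genes are given beside them in the closing section.

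**Figure D4:**
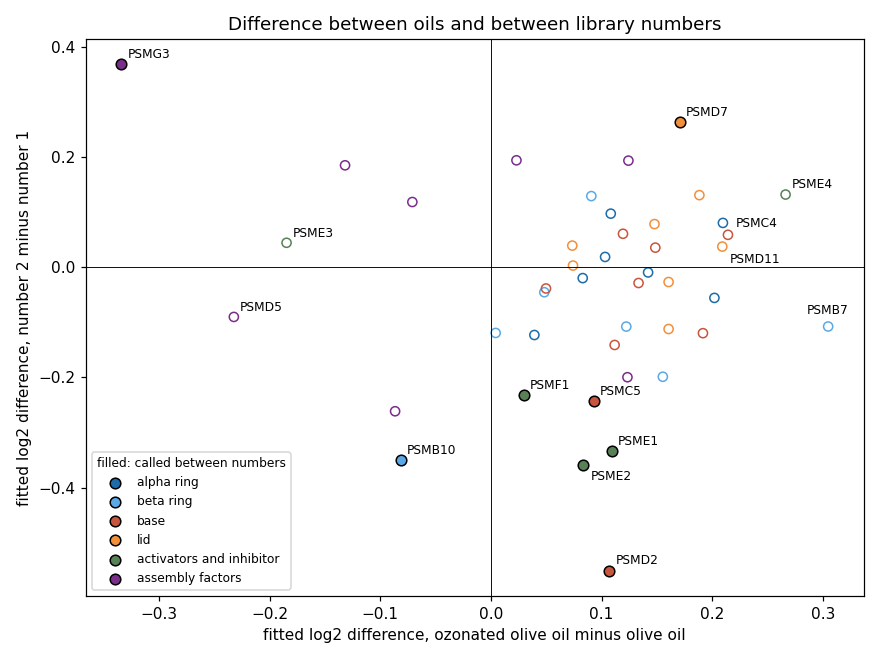
Fitted log2 difference between the oils (x axis, ozonated olive oil minus olive oil) and between library numbers (y axis, number 2 minus number 1) for 44 proteasome genes without PSMB3, coloured by role. Filled points passed the test between numbers. The called genes spread along the y axis, with PSMD2 lowest at -0.55, while PSMB7, PSME4 and PSMC4 lie farthest right with no call between numbers.

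Genes around the proteasome were counted for comparison, from lists chosen with earlier results known. In each of the 4 lists 0 genes were called between the oils by edgeR's quasi-likelihood test, by DESeq2 or by limma-voom. Over all tested genes, 31.6% were higher and 31.1% lower within both numbers, and 3.84% had an unadjusted p under 0.05 by edgeR. Among those at 100 CPM or more these shares were 43.1%, 26.9% and 5.48%. Proteasome-bound and shuttle proteins (20 of 21 tested) had a median log2 fold change of 0.07, with 9 higher and 2 lower within both numbers. Of these 20 genes, 2 had an unadjusted p under 0.05 by edgeR. ZFAND2A, a stress-induced zinc finger protein that binds the regulatory particle, had 0.54 ± 0.15 (SE), and ZFAND5, an activator of the proteasome, 0.29 ± 0.11 (SE). The ubiquitin receptor gene ADRM1 and the shuttle gene UBQLN1, the most abundant of the list, had 0.08 ± 0.11 and 0.21 ± 0.11 (SE).

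The transcript of NFE2L1 itself lay at 352 and 276 CPM with ozonated olive oil and at 331 and 263 CPM with olive oil, with overlapping groups, and NFE2L2, named here outside the rule because the list is built on it, lay at 128 and 136 CPM with ozonated olive oil and at 113.3 and 123.3 CPM with olive oil. Both factors are controlled mainly at the protein level, which was not measured. In their list of 14 genes the median was 0.08, with 9 higher and 0 lower within both numbers, against 31.6% and 31.1% of the tested genes. At an unadjusted p under 0.05 by edgeR stood 3 of the 14, against 3.84%. The small MAF partner genes MAFG (0.53 ± 0.10, SE) and MAFF (0.67 ± 0.20, SE) had the smallest unadjusted p and positive values within both numbers.

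VCP, the segregase that extracts ubiquitinated proteins for the proteasome, lay at 832 and 737 CPM with ozonated olive oil and at 734 and 653 CPM with olive oil. In the list of VCP and its cofactors the median was 0.19. Within both numbers 12 of 14 genes were higher, against 31.6% of the tested genes, and 1 was lower, against 31.1%. UBXN7 and UBXN4, adaptors of VCP, had 0.56 ± 0.18 and 0.37 ± 0.10 (SE), and the cofactor gene NPLOC4 0.04 ± 0.11 (SE). At an unadjusted p under 0.05 by edgeR stood 3 of the 14, against 3.84% of the tested genes. The COP9 signalosome, a relative of the lid in structure that removes NEDD8 from cullins, had a median of 0.04 over 10 genes. Within both numbers 4 were higher and 3 lower, against the same 31.6% and 31.1%. At an unadjusted p under 0.05 by edgeR stood 0 of the 10.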

How the data were processed

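Libraries of total RNA were made with a directional kit, per the labels' protocols. The authors deposited raw counts per gene, and the submitters' processing notes name HISAT2 2.1.0, StringTie 1.3.4d, SAMtools 1.9, bedtools 2.27.1, FastQC 0.11.7, bcl2fastq and edgeR with hg38, with no role or order. Which program counted reads, whether by strand and on which gene models is not given in the sources used here. Sense and antisense reads may therefore not be separated. RefSeq names 53 pseudogenes of 22 members, whose copies may share reads. Genes were kept by filterByExpr (14841 of 28395), scaled by TMM (factors 0.972 to 1.017) and tested with edgeR 4.0.16 in R 4.3.3: quasi-likelihood fit, two-sided, Benjamini-Hochberg over all tested genes, threshold 0.05. CPM uses TMM-scaled totals, and differences within a number use log2 CPM with a prior count of 2. Standard errors were computed as the log2 fold change over the root of F. With 2 libraries a group the smallest exact permutation p is 0.333, so none is given. The test was checked on counts simulated with no difference between the numbers. That check therefore does not cover the spread by number seen in these libraries. Lengths are from GENCODE 29 and promoters from RefSeq (GRCh38.p14). Alternatives were RLE or no scaling, other filters, DESeq2 1.42.0, limma 3.58.1 (voom), a replicate block and each library left out.

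Members and lists were chosen with earlier results of these data known. Every member is accounted for by role. Values per library are given for the 3 members of each role with the smallest p, the most abundant of each role per length, and 17 genes fixed whatever their values. Of each list around the proteasome, up to 4 genes are named, by smallest p and highest level.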

Additional observations from a re-analysis of the deposited data

Results flagged for a closer look

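PSMB9, an interferon-inducible catalytic subunit of the immunoproteasome that was left out of the comparisons, had 38 counts in ozonated olive oil replicate 1 and 0 counts in the other ozonated olive oil library and in both olive oil libraries. This is a signal in data outside the main comparison, above the level in the control libraries. PSMB8, its neighbour on chromosome 6, had 1 count in the same library. Most coding genes around them had almost no counts, and whether this bears on the 38 counts was not tested.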

How the results depend on the processing

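Between the oils, the count of genes called was 0 by edgeR's quasi-likelihood test, 58 by DESeq2 (38 higher, 20 lower) and 0 to 4 with each library left out. At an unadjusted p under 0.05 stood 570 genes by edgeR, 553 by DESeq2 and 541 by limma-voom. With the number as a replicate block, 841 genes were called (468 higher, 3.15%; 373 lower, 2.51%) and 1 member, PSMB7 (0.30, adjusted p = 0.0194 by edgeR). The block also called 4 of 14 genes of NFE2L1 and NFE2L2 control, 2 of 20 proteasome-bound and shuttle genes, and 2 of 14 of VCP and cofactors, each higher, and 0 of 10 of the COP9 signalosome. Same-numbered libraries deviated together (r = 0.672), but 2 pairs and silent labels do not establish pairing. Leaving out each library, the median over members ranged from 0.0465 to 0.134, and by role from 0.0837 to 0.173 (alpha ring), 0.0105 to 0.168 (beta ring), 0.0812 to 0.185 (base), 0.113 to 0.176 (lid), -0.108 to 0.235 (activators and inhibitor) and -0.127 to -0.0210 (assembly factors). The lid median was 0.118 without scaling factors, where that of all genes tested was -0.0432. Of 319 values of 29 named genes under 11 settings, 297 kept direction and side of the threshold. Direction turned for PSMB5 (-0.0377 without scaling factors, -0.000380 by limma-voom, -0.000514 with the block), PSMF1 (-0.0124) and PSMG2 (-0.0217) without scaling factors, and with a library left out for PSMB5 (-0.124 to 0.122), PSMB10 (-0.337 to 0.135), PSMD2 (-0.183 to 0.418), PSME1 (-0.0832 to 0.280), PSME2 (-0.146 to 0.281), PSMF1 (-0.108 to 0.156), POMP (-0.00609 to 0.267), PSMG1 (-0.254 to 0.000924) and PSMG2 (-0.0931 to 0.131). Between numbers, DESeq2 called 1650 of 21251 genes and 3 of 45 members. Without a term for the oil edgeR called 948 of 14841 genes and 2 of 45 members. The main fit between numbers called 3629 of 14841 genes (24.5%) and 9 of 45 members (20%). With a library left out that comparison has no residual degrees of freedom, and its median over members ranged from -0.0820 to 0.0110. Without PSMB3, left out after seeing the data, the oil median was 0.11. The cause of these shifts was not tested.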
